A study of Mus musculus with 6 samples.

Results

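Cd9, Cd81, Cd63, Cd82, Cd151 and Tspan2 are 6 members of the tetraspanin family that were followed here through 6 single cells of the mouse brain. Their transcripts were taken as all entries of the transcript table that named 1 of these genes and no other. This gave 224 of the 36659 transcripts in the table, from 4 of the 6 genes: Tspan2 held 143, Cd81 held 65, Cd9 held 11 and Cd63 held 5, while Cd82 and Cd151 held none. Each entry named for 1 gene was counted as 1 molecule, marked by a unique molecular identifier (UMI) of 6 bases. It was sequenced with long PacBio reads and lists the start and end of every aligned block. For some entries described below it is uncertain that they are 1 molecule.

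The cells came from CD-1 mice, with brain as the tissue and embryo as the stage in the labels of all 6, and no treatment or animal was named. There were 2 cells of each of 3 kinds: Oligo1 and Oligo5, which are oligodendrocytes, and a pair that the labels call oligodendrocyte progenitor cells. The study treated the labelled progenitor pair as vascular and leptomeningeal cells (VLMCs), and they are called VLMC-1 and VLMC-2 here, a match made by elimination. Their markers went with that name: 9 of 10 VLMC markers had transcripts in them, among them Dcn (35 in VLMC-1 and 45 in VLMC-2), Igf2 (19 and 62) and Col1a2 (11 and 47), and none of the 10 oligodendrocyte markers did. Of 10 progenitor markers only Pdgfra, which VLMCs also express, was found in the pair, with 5 and 3 transcripts. In the 4 oligodendrocytes all 10 oligodendrocyte markers were found and no VLMC marker. No transcript of the microglia or the pericyte and smooth muscle markers was found in any cell, while the endothelial markers had 3 transcripts, all in Oligo5-1 (Ly6c1 with 2 and Cldn5 with 1). Of the astrocyte markers, Slc1a3 had 21 transcripts in VLMC-2, 4 in Oligo5-1 and 1 in VLMC-1, Gja1 had 4 in VLMC-1 and Aldoc had 3 in Oligo1-1. With 2 cells a kind and no animal named, no test between kinds of cell was possible, and all intervals cover counting error only.

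Tetraspanins are small membrane proteins that cross the membrane 4 times and gather integrins, immunoglobulin-family proteins and proteases into membrane microdomains. Their larger extracellular loop carries a cysteine-cysteine-glycine motif that marks the family. Cd9, Cd81 and Cd63 are also the usual markers of extracellular vesicles, with Cd63 residing mainly in late endosomes and lysosomes. Tspan2 is a tetraspanin of oligodendrocytes and myelin, Cd9 is found in myelin and at its paranodes, and Cd151 and Cd82 bind integrins and are common in cells that sit on a basement membrane.

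Depth ran from 2338 transcripts in VLMC-1 to 11483 in Oligo1-1, and VLMC-2 had 4689, Oligo5-1 5895, Oligo1-2 6043 and Oligo5-2 6211. A count of 0, which allows up to 3 transcripts, therefore allows up to 12.8 transcripts per 10000 in VLMC-1 but only 2.61 in Oligo1-1. The cells also differed in how much of the mRNA their sequenced transcripts covered. The share of transcripts that reached an annotated first exon lay at 12.4% in Oligo1-2 and 19.8% in Oligo5-1, while VLMC-1 had 37.3%, VLMC-2 47.7%, Oligo1-1 48.0% and Oligo5-2 49.1%. Oligo5-2 stood apart in another way, with 33 transcripts of 5 neuron markers (19 of them Snap25), which had none in the other 5 cells.

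The 4 detected genes were each built from 8 exons in the GENCODE M21 model that their transcripts followed, on GRCm38 (mm10). Exon 4 was 75 bp in all of them. In all 4 the codons of the cysteine-cysteine-glycine motif of the large loop stood at base 7 of exon 6, in frame. Codons for cysteine-cysteine-glycine occurred in frame 2 times in each gene. The other match lay in exon 3 of Tspan2, Cd9 and Cd63 and in exon 8 of Cd81. The first 51 bases of exon 6 are shown, with the 9 bases of the motif in capitals. A molecule without them carries no code for the motif at this place.
Tspan2 (chr3:102760897-102760947, plus strand): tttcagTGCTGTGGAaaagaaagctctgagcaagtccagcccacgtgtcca
Cd81 (chr7:143066661-143066711, plus strand): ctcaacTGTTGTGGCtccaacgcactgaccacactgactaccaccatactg
Cd9 (chr6:125462153-125462203, minus strand): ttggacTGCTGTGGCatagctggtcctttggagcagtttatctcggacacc
Cd63 (chr10:128912161-128912211, plus strand): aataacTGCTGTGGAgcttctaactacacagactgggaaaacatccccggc
Molecules that covered these codons numbered 48 of 143 for Tspan2, 22 of 65 for Cd81, 8 of 10 for Cd9 at its own locus and 5 of 5 for Cd63. Most Tspan2 transcripts were thus pieces of the 3′ part of the mRNA, whereas those of Cd9 and Cd63 were mostly whole. The 65 entries named Cd81 were pieces too, but this was set by the naming. Entries that reached the first exon of Cd81 carried other names, as described below, and stand outside the 65. Cd81 can therefore not be set against the other genes in this respect.

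Tspan2 (chr3:102734529-102801513, plus strand) was found in oligodendrocytes alone. Oligo1-1 held 82 transcripts, Oligo1-2 held 43, Oligo5-1 held 16 and Oligo5-2 held 2, and both VLMCs held 0. Per 10000 transcripts this was 71.4 (95% Poisson interval 56.8 to 88.6) in Oligo1-1 and 71.2 (51.5 to 95.8) in Oligo1-2, so that the Oligo1 cells lay together. Oligo5-1 lay lower at 27.1 (15.5 to 44.1) and Oligo5-2 lower again at 3.22 (0.390 to 11.6), and the intervals of those cells did not overlap each other or those of Oligo1. Pooled, the 4 oligodendrocytes held at least 11.3-fold more than the VLMCs, with the VLMCs put at 3 counts together. With 0 put at 3 counts in the same way, 25.1% of the 669 genes with 10 or more transcripts were at least 2-fold higher in oligodendrocytes, and for 25.6% every oligodendrocyte lay above both VLMCs. The 2 transcripts of Oligo5-2 could not be told from the VLMCs at their depth.

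Pooled over 2 cells each, Oligo1 stood at 71.3 and Oligo5 at 14.9 Tspan2 transcripts per 10000, a ratio of 4.80 (exact 95% interval 2.91 to 8.36). Both Oligo1 cells exceeded both Oligo5 cells. Among the 492 genes with 10 or more transcripts in these cells, 36.4% were at least 2-fold higher in Oligo1, and for 34.6% both Oligo1 cells lay above both Oligo5 cells. The low end of Oligo5 came from Oligo5-2, the cell with the neuron markers. Without it Oligo5 stood at 27.1, and without Oligo5-1 at 3.22, and the part of the neuronal transcripts in this was not tested.

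**Figure D1:**
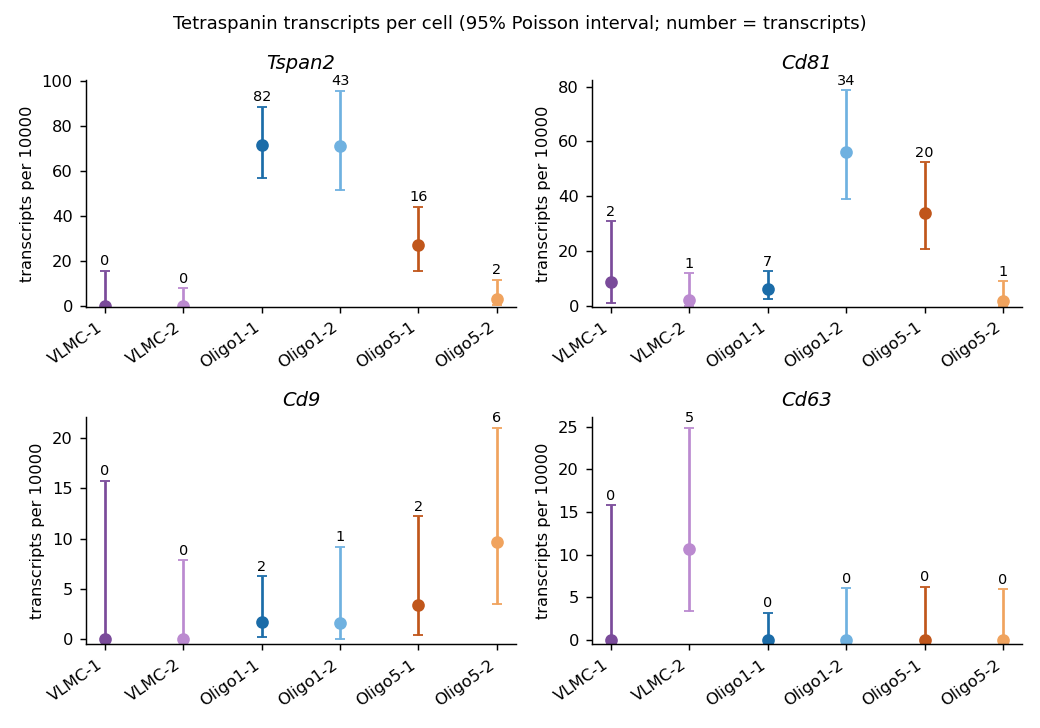
Transcripts per 10000 (vertical axis, a scale of its own in each panel) of Tspan2, Cd81, Cd9 and Cd63 in each of the 6 cells, with bars for the 95% Poisson interval and the number of transcripts above. Tspan2 is near 71 in both Oligo1 cells and at 0 in the VLMCs, Cd81 is high in Oligo1-2 and Oligo5-1, and Cd63 appears in VLMC-2 alone.

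The Tspan2 molecules also differed between cells in how much of the mRNA they held. All 8 exons were present in 40 of 82 transcripts in Oligo1-1 and in 2 of 2 in Oligo5-2, but in 1 of 43 in Oligo1-2 and in 0 of 16 in Oligo5-1. Molecules with all 8 exons are called whole, also where their first or last exon is only partly covered. Of the 43 whole Tspan2 molecules, 37 aligned over the entire coding region. Exon 8 of Tspan2 measures 3416 bp and holds the whole 3′ UTR, and 94 of the 143 transcripts lay inside it. Such fragments made up 51.2% (Wilson 95% interval 40.6 to 61.7%) of the transcripts in Oligo1-1, 88.4% (75.5 to 94.9%) in Oligo1-2 and 87.5% (64.0 to 96.5%) in Oligo5-1. The cells with few whole Tspan2 molecules were the cells with few first exons over all genes, Oligo1-2 and Oligo5-1. Those cells also had the lowest shares of reads from the long run, and the part of the runs was not tested. All 94 fragments lay behind the stop codon, so they held no coding sequence.

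Between these extremes lay few molecules: 1 transcript began in exon 3, 1 in exon 4 and 3 in exon 5. Whole molecules had a median aligned length of 2673 bp (812 to 4168 bp) and fragments one of 830 bp (85 to 3006 bp). A read from the longer of 2 sequencing runs was present for 37 of 43 whole molecules (86.0%, 72.7 to 93.4%) and for 36 of 94 fragments (38.3%, 29.1 to 48.4%). Counted from the short run alone, Tspan2 stood at 37.6 per 10000 over the oligodendrocytes, and from the long run alone it stood at 63.0.

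**Figure D2:**
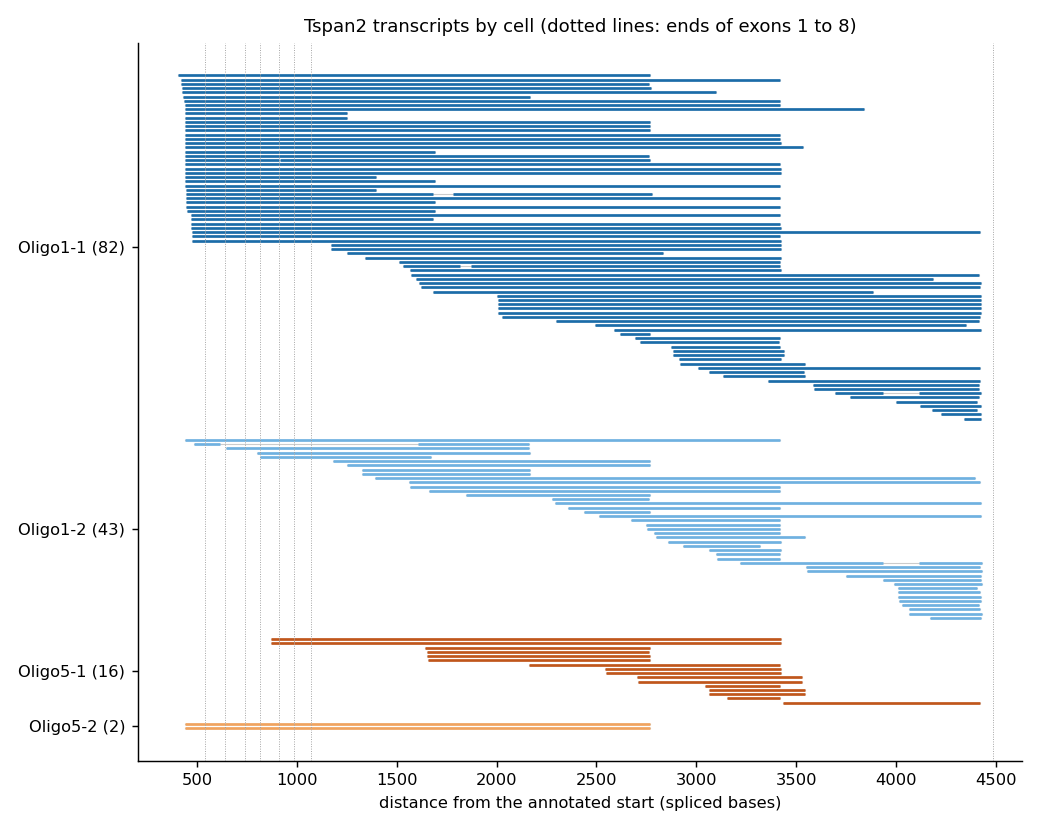
Each horizontal line is 1 Tspan2 transcript, placed by spliced distance in bases from the annotated start, grouped by cell with the number of transcripts in brackets. Dotted lines mark the ends of exons 1 to 8 and grey joins mark gaps. Whole molecules fill the upper part of Oligo1-1, while Oligo1-2 and Oligo5-1 hold mostly pieces of exon 8.

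The 5′ ends of Tspan2 clustered close to the start codon. Of 44 transcripts that reached exon 1, 29 began within chr3:102734965-102734973, with 26 of them in Oligo1-1, 1 in Oligo1-2 and 2 in Oligo5-2. The commonest position there was 29 bases before the A of the start codon and 439 bases inside the annotated first exon. A second group of 5 lay at chr3:102734949-102734956, in Oligo1-1 only. Another 7, also all in Oligo1-1, lay at chr3:102734997-102735005, from the first base of the start codon onwards. In all, 36 of the 44 began before the start codon and 8 at or behind it, and 37 aligned over the entire coding region. The sequence runs from the commonest start site through the start codon, in capitals.
Tspan2 (chr3:102734968-102735027, plus strand): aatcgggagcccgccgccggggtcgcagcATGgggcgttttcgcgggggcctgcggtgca

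**Figure D3:**
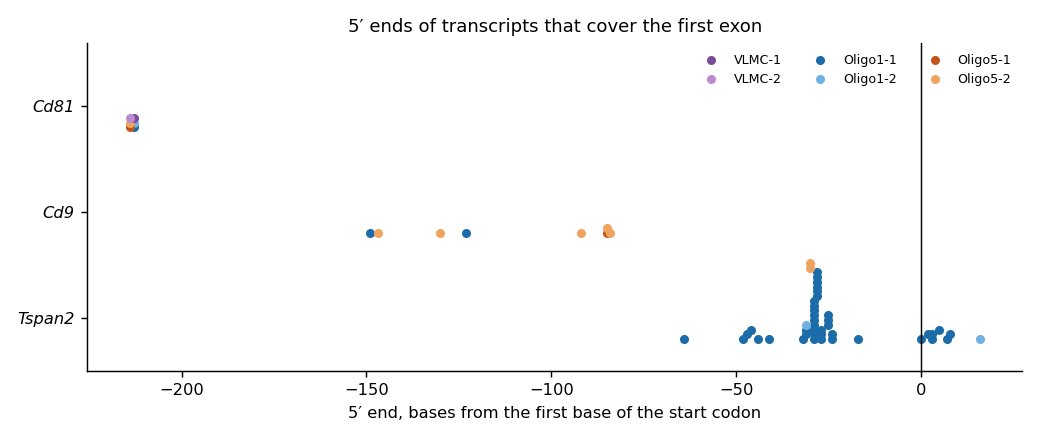
Positions of 5′ ends, in bases from the first base of the start codon, for entries that reached exon 1 of Tspan2, Cd9 and Cd81. Each point is 1 entry, coloured by cell. The Cd81 points are entries named for a pair of genes or for Cd9, with 5 to 72 reads each. Their number of molecules is unknown, so their spread cannot be set against that of Tspan2 or Cd9. Most Tspan2 points stand near 28 bases before the start codon and 8 stand at or behind it, Cd9 points spread from 149 to 84 bases before it, and all 6 Cd81 points stand 213 or 214 bases before it.

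Tspan2 had the most 3′ end sites of the 4 detected genes. With ends joined within 5 bp, 143 transcripts ended at 22 sites, of which 11 held more than 1 transcript and 7 were found in more than 1 cell. The largest, at chr3:102771224-102771231 and 2286 bases behind the stop codon, held 46 transcripts: 27 in Oligo1-1, 12 in Oligo1-2 and 7 in Oligo5-1. The second, at chr3:102772223-102772240, lay 58 bases before the end of the 8-exon model at chr3:102772292. The annotated gene reaches further, to chr3:102801513. This second site held 38: 21 in Oligo1-1, 16 in Oligo1-2 and 1 in Oligo5-1. The third, at chr3:102770569-102770580, held 20 and was the only site present in all 4 oligodendrocytes, with 9, 5, 4 and 2 transcripts.

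Whole molecules and exon 8 fragments ended at these sites in different shares. Of 43 whole molecules 18 (41.9%, 28.4 to 56.7%) ended at the largest site and 10 (23.3%, 13.2 to 37.7%) at the third. At the far site, the second one, near the end of the model, 1 (2.33%, 0.412 to 12.1%) ended. Of 94 fragments 26 (27.7%, 19.6 to 37.4%) ended at the largest, 10 (10.6%, 5.88 to 18.5%) at the third and 37 (39.4%, 30.1 to 49.5%) at the far site. Of the 38 transcripts at the far site, 37 thus lay inside exon 8. The classes also differed in cell: 40 whole molecules were from Oligo1-1, while fragments came from Oligo1-1 (42), Oligo1-2 (38) and Oligo5-1 (14). The longest whole molecule aligned over 4168 bp, and the median aligned length of the long run was 1843 bp. The part of cell and read length in these shares was not tested. The 4 transcripts at chr3:102769499-102769500, 557 bases behind the stop codon, were all whole and all from Oligo1-1.

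**Figure D4:**
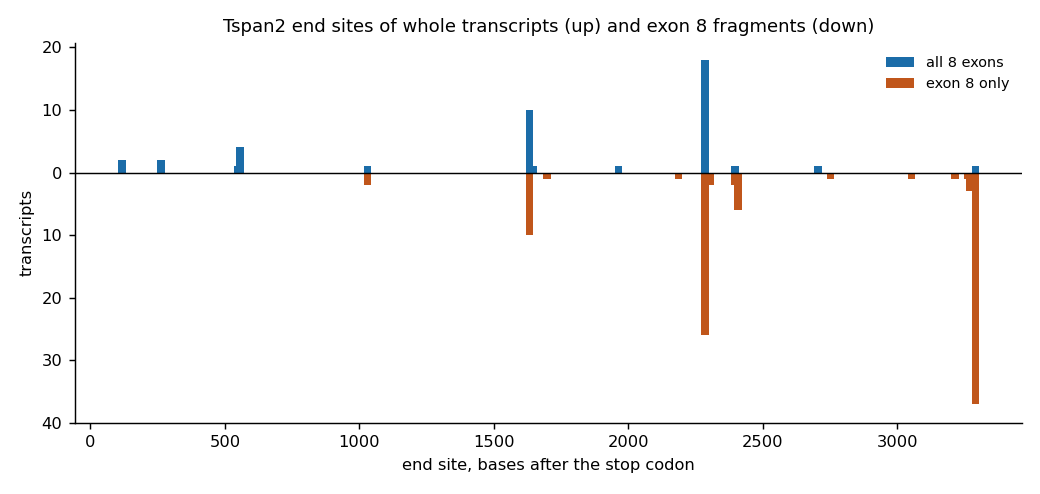
Number of Tspan2 transcripts (vertical axis) at each end site, placed by bases behind the stop codon, for molecules with all 8 exons (upward, blue) and for molecules within exon 8 (downward, orange). Whole molecules peak at 1633 and 2286 bases with 10 and 18 transcripts, and fragments reach 37 at 3292 bases.

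The 30 bases up to the commonest position of each main site are given, since they hold the poly(A) signal where there is one. Capitals mark AATAAA or ATTAAA, the 2 commonest signals, which were searched on the transcript strand.
Tspan2, largest site (chr3:102771199-102771228): agttattttaaATTAAAttttctatgtact
Tspan2, far site (chr3:102772205-102772234): tATTAAAcaacaaaaaaaaattagttaaag
Tspan2, site in all 4 oligodendrocytes (chr3:102770546-102770575): gtatgactactttacctatgtatgcaaaag
Tspan2, smaller site with 6 transcripts (chr3:102769943-102769972): tctttaaAATAAAtaaatcgccccataact
Tspan2, site with 4 whole transcripts (chr3:102769470-102769499): ctgtaaaagtaaatatagcatggaaaaatc
Over all genes, 1955 of 2694 end sites with 3 or more transcripts (72.6%) held 1 of these signals in the same window. Of the 10 such sites of Tspan2, Cd81 and Cd9, 6 did. Of the 8 in Tspan2, 4 did not: the site seen in all 4 oligodendrocytes, that of the 4 whole transcripts, one of 6 transcripts in 3 cells at chr3:102771347-102771351 and one of 3 transcripts in 2 cells at chr3:102771339-102771341. The 10 bases behind the commonest position held 6 A at the first 2 of these 4 sites, and 1 and 2 A at the last 2. They held 6 A at the far site, 4 A at the site with 6 transcripts and AATAAA, and 2 A at the largest. The highest count of Tspan2, 9 A, was at a site of 3 transcripts with ATTAAA at chr3:102772214-102772215. Its window overlaps that of the far site and holds the same ATTAAA, so 1 signal was counted at both sites. The end site of Cd63, with 5 transcripts, was not among the 10 sites.

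A few Tspan2 molecules departed from the 8-exon model. One from Oligo1-2, with a single read, left exon 2 at chr3:102749835, inside the annotated exon, and went on with a block within exon 8 that started at chr3:102769416. In Oligo1-1, 1 molecule had an additional block of 220 bp between exons 1 and 2 (chr3:102748184-102748403) and another had one of 3 bp (chr3:102740091-102740093), each with a single read. Another whole molecule of Oligo1-1, with 3 reads, lacked 100 bp of exon 8 (chr3:102769491-102769590), and an exon 8 fragment of the same cell, with 4 reads, lacked 54 bp (chr3:102769626-102769679). A gap of 179 bp in exon 8 of a fragment from Oligo1-1 (chr3:102771743-102771921) and one of 182 bp in a fragment from Oligo1-2 (chr3:102771742-102771923) had borders within 2 bases of each other, although the cells were separate. Of 578 junction positions that could be compared with the median of their structure, 3 (0.519%, 0.177 to 1.51%) lay more than 1 bp away, all by 2 or 3 bp in 2 molecules of Oligo1-1. Over all genes the share was 0.823% of 146940 positions.

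Cd81 (chr7:143052739-143067934, plus strand), which partners with Cd9, integrins and immunoglobulin-family proteins, was counted in every cell. Oligo1-2 had 34 transcripts, Oligo5-1 had 20, Oligo1-1 had 7, VLMC-1 had 2, and VLMC-2 and Oligo5-2 had 1 each. In order of level, Oligo1-2 stood at 56.3 per 10000 (39.0 to 78.6), Oligo5-1 at 33.9 (20.7 to 52.4), VLMC-1 at 8.55 (1.04 to 30.9), Oligo1-1 at 6.10 (2.45 to 12.6), VLMC-2 at 2.13 (0.0540 to 11.9) and Oligo5-2 at 1.61 (0.0408 to 8.97). The intervals of the upper pair overlapped, as did those of the lower 4, that of VLMC-1 also reached Oligo5-1, and cells of 1 kind of oligodendrocyte lay in both sets. Pooled, the oligodendrocytes stood at 20.9 and the VLMCs at 4.27, a ratio of 4.90 (1.60 to 24.4), but without Oligo1-2 the oligodendrocytes stood at 11.9. Oligo1 over Oligo5 was 1.35 (0.779 to 2.40).

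These counts held no whole Cd81 molecule. None of the 65 entries named Cd81 covered exon 1. They began in exon 2 (3 transcripts), exon 3 (12), exon 4 (1), exon 5 (5), exon 6 (7), exon 7 (10) or exon 8 (27), and Oligo1-2 alone gave 17 of the 27 that lay in exon 8.

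Molecules with Cd81 exon 1 were present under other names. Exon 1 of Cd81 shares 30 bases (chr7:143053037-143053066) with an exon of R74862, a gene on the opposite strand, and entries that touched both genes carried both names. Every cell but Oligo5-2 had exactly 1 entry named for Cd81 and R74862. Oligo1-1 had 72 reads of it, VLMC-2 had 39, Oligo5-1 had 11, Oligo1-2 had 10 and VLMC-1 had 8. In Oligo5-2 there was no such entry, but an entry of 5 reads named Cd9 lay at Cd81 from chr7:143052787 to chr7:143067918. All 6 entries had 8 blocks with identical junctions, those of the 8 exons of Cd81, and all 6 began 213 or 214 bases before the start codon.

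Shared entries differed from the others throughout the table. There were 356 entries named for more than 1 gene, and each was the only one of its cell and set of genes. They had a mean of 6.53 reads and never fewer than 2, against a mean of 1.96 and a median of 1 for entries named for 1 gene. Only 1 entry of any name had more reads than the 72 of Cd81 in Oligo1-1. The number of molecules behind a shared entry can therefore not be read from the table, and reads are the measure that includes them.

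Counted as reads at the locus, Cd81 looked different. Reads per 10000 were 66.0 (49.8 to 86.0) in Oligo1-2, 41.0 (32.7 to 50.7) in Oligo1-1, 40.8 (30.8 to 52.9) in Oligo5-1, 29.7 (21.7 to 39.7) in VLMC-2, 17.1 (9.10 to 29.2) in VLMC-1 and 8.48 (3.41 to 17.5) in Oligo5-2. Each cell overlapped its neighbour in this order. Oligodendrocytes over VLMCs came to 1.56 (1.16 to 2.13) in reads, against 4.90 in transcripts, and reads of 1 molecule are not independent, so this interval is too narrow. The entry with exon 1 held 86.7% of these reads in VLMC-2, 85.7% in Oligo1-1, 71.4% in Oligo5-2 and 61.5% in VLMC-1, but 18.2% in Oligo1-2 and 19.6% in Oligo5-1. Those last cells are again the ones with few first exons over all genes and the lowest shares of reads from the long run.

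**Figure D5:**
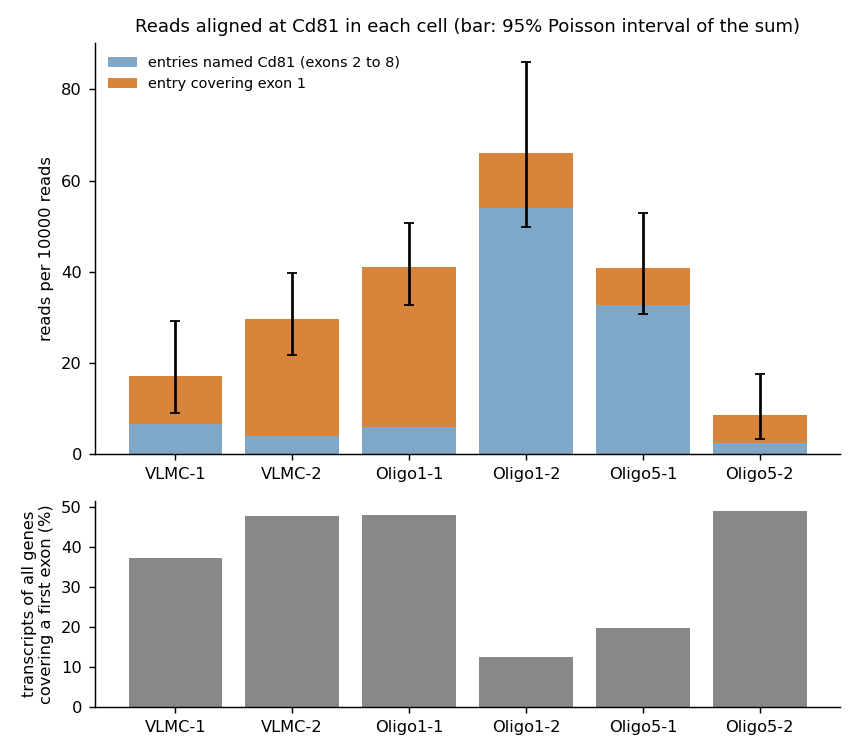
Upper panel, reads at Cd81 per 10000 reads of each cell, stacked from entries named Cd81 (blue) and the 1 entry that covers exon 1 (orange), with the 95% Poisson interval of the sum. Lower panel, percent of transcripts of all genes that reach a first exon. Orange dominates in the 4 cells with 37.3% or more and blue in Oligo1-2 and Oligo5-1.

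The 3′ end of Cd81 was nearly single: 62 of 65 transcripts, from all 6 cells, ended at chr7:143067905-143067929, and the commonest position lay 7 bases before the annotated end. The 30 bases before it hold AATAAA.
Cd81 (chr7:143067898-143067927, plus strand): ttAATAAAggaggaaaaaaatcaggcatgc
The 5′ ends of the pieces fell at 38 sites, 9 of them present in more than 1 cell. The largest, at chr7:143067432-143067443 behind the stop codon, held 9 transcripts, 4 from Oligo1-2 and 5 from Oligo5-1. No junction was displaced among 222 positions, which allows a share of up to 1.35%. A pair of transcripts of Oligo1-2 had gaps of 60 and 59 bp at the same place in exon 8, and their UMIs differed by a shift of 1 base.

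Cd9 (chr6:125460266-125494791, minus strand), a vesicle and myelin tetraspanin, had 6 transcripts in Oligo5-2, 2 each in Oligo5-1 and Oligo1-1, 1 in Oligo1-2 and none in the VLMCs. Per 10000 this was 9.66 (3.55 to 21.0) for Oligo5-2, 3.39 (0.411 to 12.3) for Oligo5-1, 1.74 (0.211 to 6.29) for Oligo1-1 and 1.65 (0.0419 to 9.22) for Oligo1-2. All intervals overlapped. The pooled oligodendrocytes stood at 3.71, below the 4.27 that a count of 0 allows in the VLMCs, so no difference was detectable at this depth. Oligo5 over Oligo1 was 3.86 (0.927 to 22.6), and 18.3% of the 492 genes were at least 2-fold higher in that direction. Oligo5-2, with the highest Cd9 count, had the lowest Tspan2 and Cd81 counts of the oligodendrocytes. Of its 6 Cd9 entries, 1 lay at Cd81, so that entry adds to Cd9 and is missing from Cd81 in this comparison. Without it the Cd9 count of Oligo5-2 is 5, still the highest. The levels and ratios above include it.

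All displaced junctions of Cd9 came from the 1 entry in Oligo5-2 that lay at Cd81. As deposited, 14 of 134 Cd9 junction positions (10.4%, 6.33 to 16.8%) stood away from their median, and those 14 were every junction of that entry. They lay on another chromosome, so the distance is no shift of a splice site. Without it, 0 of 120 positions were displaced, which allows up to 2.50%, and the Cd9 count of Oligo5-2 is 5. At least 1 displaced junction was found in 34% of the 617 genes with 5 or more comparable transcripts. In the whole data set 48 of 35881 entries (0.134%) lay more than 10 kb outside the gene they were named for. These 48 had a median of 6 reads, and 4 had 1 read, against a median of 1 over entries named for 1 gene. The number of molecules behind them is therefore uncertain, as for the shared entries.

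Cd9 and Cd81 share the lengths of exons 3 and 4, 98 and 75 bp, with Tspan2. Exon 4 is printed for the 3 genes to show how far a Cd9 molecule differs from a Cd81 molecule in a stretch of equal length, with capitals for the 31 bases that are the same in all of them.
Cd9 (chr6:125463685-125463759, minus strand): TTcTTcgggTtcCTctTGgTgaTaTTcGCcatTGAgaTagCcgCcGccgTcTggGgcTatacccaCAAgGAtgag
Cd81 (chr7:143065943-143066017, plus strand): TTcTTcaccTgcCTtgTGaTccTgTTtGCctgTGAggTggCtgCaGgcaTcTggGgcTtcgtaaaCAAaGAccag
Tspan2 (chr3:102758157-102758231, plus strand): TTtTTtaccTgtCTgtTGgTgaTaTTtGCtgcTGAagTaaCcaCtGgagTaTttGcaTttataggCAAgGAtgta
Cd9 and Cd81 were identical at 62.7% of these positions, Cd9 and Tspan2 at 58.7%, and Cd81 and Tspan2 at 54.7%.

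At its own locus Cd9 was mostly whole. Of 10 transcripts, 8 had all 8 exons and aligned over the entire coding region: 5 in Oligo5-2, 2 in Oligo1-1 and 1 in Oligo5-1. The other 2, from Oligo1-2 and Oligo5-1, held exons 6 to 8 and started at the same base, chr6:125462164. The deposited table numbers exons in genomic order, so these appear there as exons 1 to 3 of this minus-strand gene. The 8 whole molecules began between 149 and 84 bases before the start codon, at 5 sites, 2 of them in 2 cells each. All 10 ended at chr6:125460266 or the base beside it, the annotated end, behind an AATAAA.
Cd9 (chr6:125460266-125460295, minus strand): tttgatacatAATAAAagattataacagtg

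Cd63 (chr10:128900989-128912822, plus strand), the late endosome and vesicle tetraspanin, was found in VLMC-2 alone, with 5 transcripts. This was 10.7 per 10000 (3.46 to 24.9) in that cell, while VLMC-1 and all 4 oligodendrocytes held 0. A count of 0 allows up to 12.8 in VLMC-1, so the VLMCs could not be told apart, and up to 2.61 in Oligo1-1, below the interval of VLMC-2. In Oligo1-2 it allows 4.96, in Oligo5-2 4.83 and in Oligo5-1 5.09, all within that interval, so these cells could not be told from VLMC-2 one by one. Pooled, the VLMCs stood at least 7.03-fold above the oligodendrocytes put at 3 counts, and without VLMC-2 nothing remained. The VLMC level of 7.12 became 2.63 with UMIs read 2 or more times, 2.64 in reads and 16.4 among transcripts that cover a first exon. With 5 transcripts Cd63 fell short of the 10 required for a call over all genes, where 20% of genes were at least 2-fold higher in VLMCs.

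All 5 Cd63 molecules had the same 8 blocks and covered the entire coding region. Their first block matched the first exon of a GENCODE form of Cd63 (chr10:128909699-128909958), which holds no coding bases. The deposited structure lists exons 2 to 8 for these molecules and has no number for that block. Their 5′ ends lay at 3 sites in that exon. All ended at chr10:128912814-128912816, at the end of that GENCODE form (chr10:128912815).

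Cd82 (chr2:93419111-93463140, minus strand) and Cd151 (chr7:141467392-141471473, plus strand), integrin-binding tetraspanins, had no entry in any cell. Over the 4 oligodendrocytes this allows up to 1.01 transcripts per 10000, and over the VLMCs up to 4.27. At that limit Cd82 and Cd151 lay below Tspan2 and Cd81 in the oligodendrocytes but could not be told from Cd81 in the VLMCs.

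Profiles over the 6 cells were compared among the 220 genes with 20 or more transcripts, as the sum over cells of the smaller share, where 1 is identity. Most like Tspan2 were Secisbp2l (0.954), Olig1, a transcription factor of the oligodendrocyte lineage (0.930), and Ppp2r1a, a scaffold subunit of protein phosphatase 2A (0.923), with a median of 0.589 over all genes. Olig1 held 26, 17, 8 and 1 transcripts in Oligo1-1, Oligo1-2, Oligo5-1 and Oligo5-2. Most like Cd81 were Slc12a2, a sodium, potassium and chloride cotransporter (0.835), Rdx, which links membrane proteins to actin (0.806), and Gpr37, a receptor of oligodendrocytes (0.763), with a median of 0.476. Slc12a2 held 19, 30, 13 and 1 transcripts in the same cells. The genes of a cell share its depth and its share of first exons, and the likeness of Cd81 rests on counts without its whole molecules.

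Of 25 other tetraspanins 10 had transcripts, all of them in oligodendrocytes and 4 also in VLMCs. The oligodendrocytes held 29632 transcripts of all genes and the VLMCs 7027. Numbers of detected genes can therefore not be compared between these groups. Tspan15, which regulates the protease Adam10, had 6, 7 and 3 transcripts in Oligo1-1, Oligo1-2 and Oligo5-1 and none elsewhere. Tspan31 was the only one found in all 6 cells, with 3 and 4 transcripts in the VLMCs and 3, 2, 1 and 1 in the oligodendrocytes, an oligodendrocyte to VLMC ratio of 0.237 (0.0710 to 0.792). Tspan3 had 4 transcripts in VLMC-2, 5 in Oligo1-1, 2 in Oligo1-2 and 3 in Oligo5-1, and its ratio of 0.593 (0.171 to 2.59) spanned 1. By the 2-fold rule, 1 of the 3 with 10 or more transcripts, Tspan31, was called toward VLMCs and 0 toward oligodendrocytes, against 20% and 25.1% of all 669 genes, and 3 genes are too few to be read against those shares.

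Of 21 partner proteins 12 had transcripts, all in oligodendrocytes and 2 also in VLMCs, and the same difference in depth applies. Cldn11, the tight junction protein of myelin that binds a tetraspanin, held 100 transcripts, with 43, 35, 18 and 4 in Oligo1-1, Oligo1-2, Oligo5-1 and Oligo5-2, and was 2.45-fold (1.51 to 4.13) higher in Oligo1 than in Oligo5. Itgb1, the integrin subunit most often found with tetraspanins, had 1 transcript in VLMC-1 and 10, 2, 3 and 3 in the oligodendrocytes, a ratio of 4.27 (0.674 to 178). Sdcbp, the vesicle adaptor syntenin, had 5 in VLMC-1, 1 in Oligo1-2, 2 in Oligo5-1 and 1 in Oligo5-2. Its oligodendrocyte to VLMC ratio was 0.190 (0.0376 to 0.881), and with 9 transcripts it fell short of the 10 required for a call. By the 2-fold rule 2 of 3 partners with 10 or more transcripts, Cldn11 and Itgb1, were called toward oligodendrocytes and 0 toward VLMCs, against 25.1% and 20% of all 669 genes. Cldn11 is also among the 10 oligodendrocyte markers against which the names of the cells were checked, so its call was set in advance. The call of Itgb1 rests on 1 VLMC transcript, and its interval spans 1. As for the other tetraspanins, 3 genes are too few to be read against those shares.

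Of 12 vesicle and late endosome genes 7 had transcripts. Lamp1, a lysosomal membrane protein, had 2 in VLMC-2 and 13, 5, 9 and 6 in the oligodendrocytes, a ratio of 3.91 (1.00 to 33.7). Lamp2, its relative, had 10 in VLMC-2 and 13, 0, 2 and 4 in the oligodendrocytes, a ratio of 0.451 (0.199 to 1.08). By the 2-fold rule Lamp1 was called toward oligodendrocytes and Lamp2 toward VLMCs, where 25.1% and 20% of all 669 genes were called, but the interval of Lamp2 spans 1 and that of Lamp1 begins at 1.00. VLMC-1, the cell with the lowest depth, held no transcript of any of the 12.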

How the data were processed

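Stored STRT cDNA of 6 C1-captured cells was sequenced on PacBio in a short and a long run. The authors kept circular consensus reads with 1 cell barcode, aligned them to mm10 (GMAP in the study's methods; GSNAP in the submitters' processing notes), annotated them with RefSeq and joined reads by UMI. The deposited table lists each transcript with its count of reads and its block starts and ends, which the authors left unnormalised. Cells were assigned by barcode. The runs were told apart by movie, with a median aligned length of 661 bp in the short run (5 movies) and 1843 bp in the long (2 movies).

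From these, entries named for 1 member were counted per 10000 transcripts of the cell, with exact Poisson, exact conditional or Wilson 95% intervals. Block starts were raised by 1 to be 1-based. Displaced junctions lay more than 1 bp from the median of their gene and exon structure (2 or more transcripts). Ends were joined within 5 bp. Exons were numbered in order of transcription from GENCODE M21, which matched 6720 of 6758 gene names, and sequences were read from its transcripts. A fold call took genes with 10 or more transcripts at 2-fold or more, with 0 put at 3 counts.

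Members, gene lists and the rule for named genes (the members, the 3 most alike profiles for members with 20 or more transcripts, and up to 6 genes a list by transcripts) were chosen with earlier results of these data known. No test across cells was made, since no animal is named. Functions were tested on simulated data. Python 3.11.15, pandas 2.3.3 and scipy 1.17.1 were used.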

Additional observations from a re-analysis of the deposited data

Results flagged for a closer look

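The entries that covered exon 1 of Cd81 stood outside the count of Cd81 transcripts, being named for a pair of genes or for Cd9, and they held reads in every cell. Oligo1-1 had 72 such reads, VLMC-2 had 39, Oligo5-1 had 11, Oligo1-2 had 10, VLMC-1 had 8 and Oligo5-2 had 5, and how many molecules stand behind them cannot be read from the table.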

How the results depend on the processing

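Of 245 recomputed values for 25 results, 198 stayed within the 95% interval of the value given or within 1.5 times of a count. These 198 include the levels of Cd9 and Tspan2 in VLMCs and of Cd63 in oligodendrocytes. Those levels were 0, which leaving out transcripts or cells could not change. The 198 are therefore no measure of how stable the results are. Leaving out 1 cell at a time gave ranges, in transcripts per 10000, of 2.13 to 4.96 for Cd9 in oligodendrocytes, 11.9 to 30.3 for Cd81 in oligodendrocytes, 2.13 to 8.55 for Cd81 in VLMCs, 0 to 10.7 for Cd63 in VLMCs, 33.6 to 60.2 for Tspan2 in oligodendrocytes, 71.2 to 71.4 in Oligo1 and 3.22 to 27.1 in Oligo5. The same gave 0 to 13.2% displaced junctions for Cd9 (0 without Oligo5-2) and 0 to 0.545% for Tspan2 (0 without Oligo1-1), 18 to 38 start sites and 2 to 5 end sites for Cd81, 45 to 79 start sites, 11 to 22 end sites and 3 to 6 exon structures for Tspan2. Removing cells leaves fewer transcripts for sites and structures. With only transcripts that cover a first exon counted, Cd9 stood at 7.82 and Tspan2 in Oligo5 at 4.85. Cd81 stood at 0 in both VLMCs and oligodendrocytes, which was set by the naming, since entries with its first exon carried other names. The same count left 1 structure for Cd9 and 2 for Tspan2. The short and long runs alone gave 27.0 and 12.4 for Cd81 and 37.6 and 63.0 for Tspan2 in oligodendrocytes, and 53.0 and 99.9 for Tspan2 in Oligo1; the cause was not tested. UMIs read 2 or more times gave Tspan2 in Oligo5 at 8.77, 25.0% displaced junctions for Cd9, 18, 1 and 37 start sites for Cd81, Cd63 and Tspan2 and 2 end sites for Cd81. Ends joined at 0 bp gave 5 start sites for Cd63 and 2, 20, 3 and 51 end sites for Cd9, Cd81, Cd63 and Tspan2. Joining within 10 bp gave 1 start site for Cd63, and within 20 bp 3, 17, 1 and 48 start sites for Cd9, Cd81, Cd63 and Tspan2. An offset limit of 5 bp left 0 displaced junctions for Tspan2. Chosen after seeing the data, leaving out the entries outside their gene gave 0 displaced junctions for Cd9, and counting reads with the shared entries gave Cd81 at 25.5 in VLMCs and 39.7 in oligodendrocytes. No paired analysis was possible because no result comes from a test.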
